A study of Homo sapiens with 2 samples.

Results

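The ubiquitin conjugating enzyme genes described here are the annotated genes whose symbol is UBE2 followed by 1 letter and at most 1 digit. They numbered 32 of the 16645 annotated genes with at least 1 read. All 32 are protein-coding and all had reads in both libraries. GENCODE 29, the annotation that the known models of the table matched, holds 36 symbols of this form, and the other 4 (UBE2L2, UBE2L4, UBE2L5 and UBE2U) are not analysed here. The data are 2 direct RNA nanopore libraries of GM12878, a human lymphoblastoid line made from B cells with Epstein-Barr virus. They form 1 group, replicate 1 and replicate 2, with no treatment named, and both used the SQK-RNA002 kit on FLO-MIN106D flow cells. The labels do not say whether the replicates came from separate cultures, so each p-value below compares the reads of these libraries, and the spread between them may be technical. Replicate 1 held 1360368 reads and replicate 2 held 1510998, and 1 read was worth 0.735 and 0.662 CPM, the read count scaled to a standard library size. In this assay a native RNA strand gives 1 read, so CPM was not divided by gene length. All 8 B cell markers checked were read (lowest 39.7 and 46.3 CPM, highest 7766 and 8088 CPM), while 4 of 6 markers of other lineages (CD3D, GATA1, HBG1 and ALB) were at 0, CD14 had 2 reads in each library and CD3E had 5 and 16.

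Ubiquitin is attached to proteins by a relay of enzymes. An E1 enzyme activates it, an E2 conjugating enzyme carries it as a thioester on a catalytic cysteine, and an E3 ligase brings the loaded E2 to the substrate. The UBE2 genes encode the E2 enzymes and a few relatives that lack the cysteine or carry another modifier, such as NEDD8 or ISG15, in place of ubiquitin. Dividing B cells use them for the cell cycle, for signalling to NF-kappaB and for the removal of misfolded proteins in the secretory pathway.

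The coding sequence around the catalytic cysteine was compared between members. Of the 32 reference transcripts in GENCODE 29, 17 encode a histidine-proline-asparagine triplet with a cysteine 10 codons later, 2 (UBE2H and UBE2K) have the cysteine 11 codons later, and 13 lack the triplet. The reference is the coding transcript with most reads, or the longest where tied. For UBE2D3 and for UBE2A, one of the 13, it rests on 1 read. UBE2E2, UBE2O, UBE2Q2 and UBE2W, also among the 13, had no read in a known coding transcript, so their longest was taken. Other transcripts of a gene were not searched. The 33 bases from the histidine codon to the cysteine codon, 5′ to 3′ on the coding strand, are shown for 3 UBE2D genes, close paralogs that differ widely in level, and for 4 of the members with the most reads. Capitals mark the cysteine codon.
UBE2D1: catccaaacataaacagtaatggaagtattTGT
UBE2D2: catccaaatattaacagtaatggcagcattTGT
UBE2D3: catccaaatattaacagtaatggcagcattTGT
UBE2N: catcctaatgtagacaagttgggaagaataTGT
UBE2S: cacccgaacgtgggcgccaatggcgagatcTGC
UBE2M: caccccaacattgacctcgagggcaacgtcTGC
UBE2L6: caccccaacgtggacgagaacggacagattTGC
On GRCh38 these windows lie at chr10:58364795-58364827 (UBE2D1, plus strand), chr5:139614885-139614917 (UBE2D2, plus), chr4:102801503-102801535 (UBE2D3, minus), chr12:93411069-93411101 (UBE2N, minus), chr19:55404345-55404377 (UBE2S, minus), chr19:58556701-58556733 (UBE2M, minus) and chr11:57554489-57554521 (UBE2L6, minus). Each lies within 1 coding exon of its gene. UBE2D2 and UBE2D3 are identical in all 33 bases, although the genes are on different chromosomes, and UBE2D1 matches UBE2D2 at 29 bases. The windows of UBE2N, UBE2M, UBE2S and UBE2L6 match that of UBE2D2 at 21, 20, 18 and 18 bases. Every window was chosen for its triplet and cysteine, so part of each match follows from that choice. Over the whole coding sequence UBE2D2 and UBE2D3 share 382 of 441 bases (86.6%), the highest identity among the 16 pairs of related members compared. The letters of this window do not tell a UBE2D2 read from a UBE2D3 read, and the split of reads between the genes rests on the rest of the sequence.

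Together the 32 genes received 4515 reads in replicate 1, or 0.332% of the library (95% Wilson interval 0.322 to 0.342%), and 4689 reads in replicate 2, or 0.310% (0.302 to 0.319%). The mean was 0.321% ± 0.0153 (SD, n = 2). Wilson intervals here and below cover counting error only. The median member had 76.4 CPM, beside 15.1 CPM for all annotated protein-coding genes with a read, and 30 members lay above the median of all annotated genes, 8.23 CPM. The levels spanned 43.9-fold from UBE2S to UBE2W. The 10 most abundant members held 65.8% of the reads of the group.

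Among the broad ubiquitin E2 enzymes, which work with many ligases, UBE2D3 and UBE2D2 accounted for most reads. UBE2D3 (chr4:102794383-102868896) had 363 and 397 reads, or 266.8 and 262.7 CPM (mean 264.8 ± 2.90, SD, n = 2). UBE2D2 (chr5:139526431-139628433) had 284 and 300 reads, or 208.8 and 198.5 CPM (mean 203.7 ± 7.23). The paralogs UBE2D4 and UBE2D1 were far lower, at means of 15.8 ± 4.62 and 7.32 ± 0.0502 CPM. Of the related UBE2E group, UBE2E1 (chr3:23805903-23891316) had 187 and 240 reads, or 137.5 and 158.8 CPM (mean 148.1 ± 15.1), whereas UBE2E3 had 25.9 ± 2.91 and UBE2E2 15.5 ± 5.25 CPM. In each of these groups the replicates of the abundant genes lay above all values of the scarce ones.

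The E2 pair of the anaphase promoting complex, the ligase that drives exit from mitosis, was abundant. UBE2S, which extends the chains that UBE2C starts, was the highest member. UBE2S (chr19:55399745-55407777) had 435 and 429 reads, or 319.8 and 283.9 CPM (mean 301.8 ± 25.3). UBE2C (chr20:45812576-45816957) had 197 and 191 reads, or 144.8 and 126.4 CPM (mean 135.6 ± 13.0). Both UBE2S values lay above both UBE2C values.

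UBE2N makes lysine 63 chains, a signal in NF-kappaB activation and DNA damage tolerance, together with a catalytically inactive partner, UBE2V1 or UBE2V2. UBE2N (chr12:93405673-93442262) had 392 and 313 reads, or 288.2 and 207.1 CPM (mean 247.7 ± 57.3). UBE2V1 (chr20:50081124-50115959) had 135 and 82 reads, or 99.2 and 54.3 CPM (mean 76.8 ± 31.8). UBE2V2 had 68 and 73 reads, or 49.99 and 48.3 CPM (mean 49.1 ± 1.18). By these counts UBE2N exceeded the sum of both partners in each library, but not in replicate 2 (213.8 CPM for the partners) once the reads of the readthrough gene TMEM189-UBE2V1, described further on, are added. Replicate 1 was the higher library for UBE2N and UBE2V1.

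The 5 E2 enzymes of other modifiers had the largest summed level, 731.7 ± 19.3 CPM or 22.8% of the reads of the group. UBE2M and UBE2F conjugate NEDD8, the modifier that activates cullin ligases. UBE2M (chr19:58555712-58558960) had 356 and 344 reads, or 261.7 and 227.7 CPM (mean 244.7 ± 24.1), and UBE2F had a mean of 40.1 ± 1.498 CPM. UBE2L6, the main E2 of the interferon-induced modifier ISG15, had (chr11:57551656-57568284) 191 and 263 reads, or 140.4 and 174.1 CPM (mean 157.2 ± 23.8). It was higher in replicate 2 by 0.31 on the log2 scale, which did not pass the test (adjusted p of 0.212, exact binomial test with Benjamini-Hochberg adjustment). UBE2Z, which is loaded by UBA6 and can carry the modifier FAT10 as well as ubiquitin, had 83.9 ± 0.176 CPM.

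Members of the degradation pathway at the endoplasmic reticulum summed to 293.1 ± 2.88 CPM. The membrane-anchored UBE2J1 had 115.1 ± 13.1 and UBE2J2 55.3 ± 1.31 CPM, and the soluble UBE2G1 and UBE2G2 had 83.6 ± 10.6 and 39.04 ± 0.926 CPM. Lysine 48 chains mark proteins for the proteasome. UBE2K and UBE2R2, which make them, had 84.5 ± 6.27 and 83.8 ± 6.22 CPM, a difference smaller than the spread between replicates. Of the members that act in DNA damage tolerance and repair, UBE2T, the E2 of the Fanconi anaemia pathway, had 76.1 ± 4.70 CPM, and UBE2A and UBE2B, the RAD6 paralogs, had 66.4 ± 4.92 and 32.4 ± 8.43 CPM. UBE2L3, which serves HECT and RING-between-RING ligases such as LUBAC and parkin, was the highest of the remaining members, with (chr22:21549447-21624034) 285 and 304 reads, or 209.5 and 201.2 CPM (mean 205.3 ± 5.88). UBE2Q1 had 68.7 ± 12.0 and UBE2H 38.6 ± 0.581 CPM. UBE2O had 19.999 ± 5.41, UBE2Q2 11.4 ± 3.59 and UBE2W 6.87 ± 2.45 CPM. Where all 32 genes were ordered by mean level, 22 of the 31 pairs of neighbours had overlapping replicate values. The exceptions were the steps below UBE2S, UBE2M, UBE2D2, UBE2C, UBE2J1, UBE2A, UBE2J2, UBE2V2 and UBE2Q2.

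**Figure D1:**
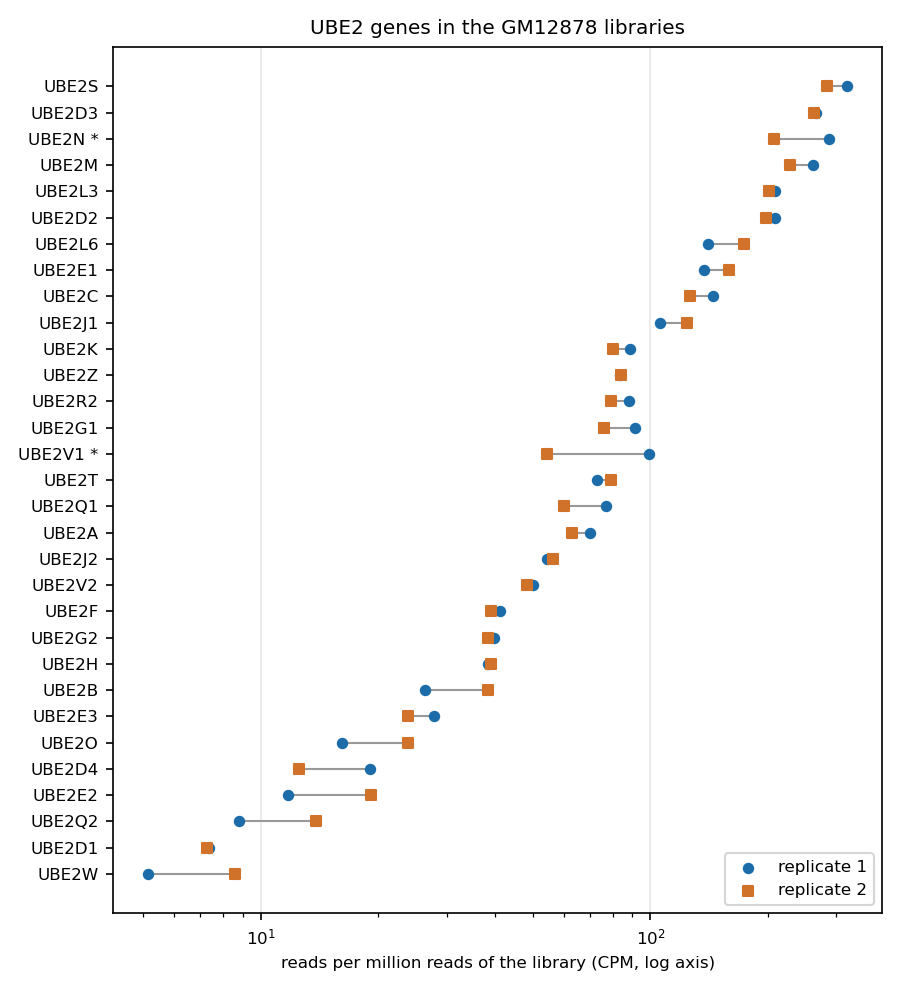
Level of 31 of the 32 genes in CPM on a log axis, with a circle for replicate 1 and a square for replicate 2, ordered by mean. Asterisks mark UBE2N and UBE2V1, the genes past the threshold of the exact binomial test, and the levels run from 301.8 CPM for UBE2S down to 6.87 CPM for UBE2W.

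Most members had counts that did not differ between the libraries beyond the test's threshold. Of the 32 genes, 2 passed (adjusted p under 0.05, two-sided exact binomial test given the totals of both libraries, Benjamini-Hochberg over 10634 genes), and both were lower in replicate 2. Over all genes tested 5.05% passed, 2.33% lower and 2.72% higher, so the share of members, 6.25%, was near the background. UBE2N fell by 0.48 on the log2 scale (adjusted p of 0.000788, exact binomial test) and UBE2V1 fell by 0.87 (adjusted p of 0.000704, exact binomial test). The median log2 ratio of replicate 2 to replicate 1 was -0.05 over the members and 0.01 over all genes tested. In a bulk library fewer cells that express a gene and less of its RNA per cell cannot be told apart. A further setting counted only reads of known models and scaled them to all known reads of each library (760440 and 693006). On that scale UBE2V1 no longer passed (log2 ratio -0.65, adjusted p of 0.0693, exact binomial test). This ratio is not comparable with the fall of 0.87, which was scaled to all reads. The known share of UBE2V1 was 57.8% in replicate 1 and 54.9% in replicate 2.

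UBE2V1 shares its 3′ end with another annotated gene. TMEM189-UBE2V1 is an annotated readthrough gene that joins the neighbouring TMEM189 to UBE2V1 and ends in the same terminal exon of 1791 bases (chr20:50081124-50082914). It had 111 reads in replicate 1 and 168 in replicate 2, and its log2 ratio of 0.44 did not pass (adjusted p of 0.138, exact binomial test). Of its reads, 110 and 167 were in genomic models of 1 exon, which overlap the gene but contain none of its splice junctions, and 109 and 158 were in a single model of 593 bases. No read of the readthrough gene was in a known model. UBE2V1 itself had no genomic read, and 78 and 45 of its reads were in known models. Counted together, a choice made after seeing the data, the genes had 246 and 250 reads, or 180.8 and 165.5 CPM, and the log2 ratio was -0.13 (adjusted p of 0.736, exact binomial test). Only UBE2N then passed among the members. The table gives no coordinates of models, so the position of the 593-base model within the shared exon was not tested. Besides TMEM189-UBE2V1, the related genes outside the symbol rule with most reads were the pseudogene UBE2SP1, with 9 and 20, and the readthrough gene UBE2F-SCLY, with 1 and 6.

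**Figure D2:**
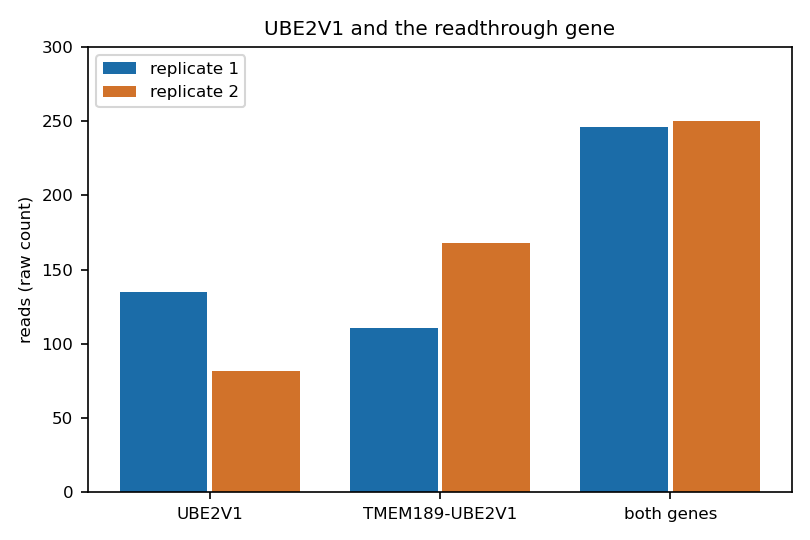
Raw read counts of UBE2V1, of the readthrough gene TMEM189-UBE2V1 and of both together, with blue bars for replicate 1 and orange bars for replicate 2. UBE2V1 falls from 135 to 82 reads, the readthrough gene goes from 111 to 168, and their sum is 246 and 250.

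Every read counted for these genes is placed in a transcript model, and the models of annotated genes fall into 5 categories. Known models match an annotated transcript. Incomplete splice matches (ISM) contain part of the junctions of one, or a single exon of it. NIC models join annotated splice sites in a new combination, and NNC models use at least 1 unannotated splice site. Genomic models overlap a gene without following its splicing.

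Known models held 46.5% of member reads in replicate 1 (45.02 to 47.9%) and 32.6% in replicate 2 (31.2 to 33.9%), against 56.5% and 46.4% over all annotated genes. Genomic models held 20.2% (19.01 to 21.4%) and 29.3% (28.1 to 30.7%), against 10.9% and 15.3%. The ISM share was 21.5% and 29.2%, beside 24.0% and 32.3%. Members thus had a lower known share and a higher genomic share than the pooled genes in each library, and the intervals did not meet. NIC models held 5.54% and 4.14% of member reads and NNC models 6.33% and 4.71%, beside 4.13% and 2.90%, and 4.38% and 3.14%, over all genes. These pooled shares weight genes by their reads. In the median of 27 members with 20 reads in each library the known share was 42.5% and 27.1%, above the 32.5% and 17.5% of all 6340 such genes, while the genomic share, 16.2% and 31.8%, was also above theirs, 6.53% and 10.96%. Pooled and per-gene values therefore placed the known share of the members on opposite sides of the background.

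**Figure D3:**
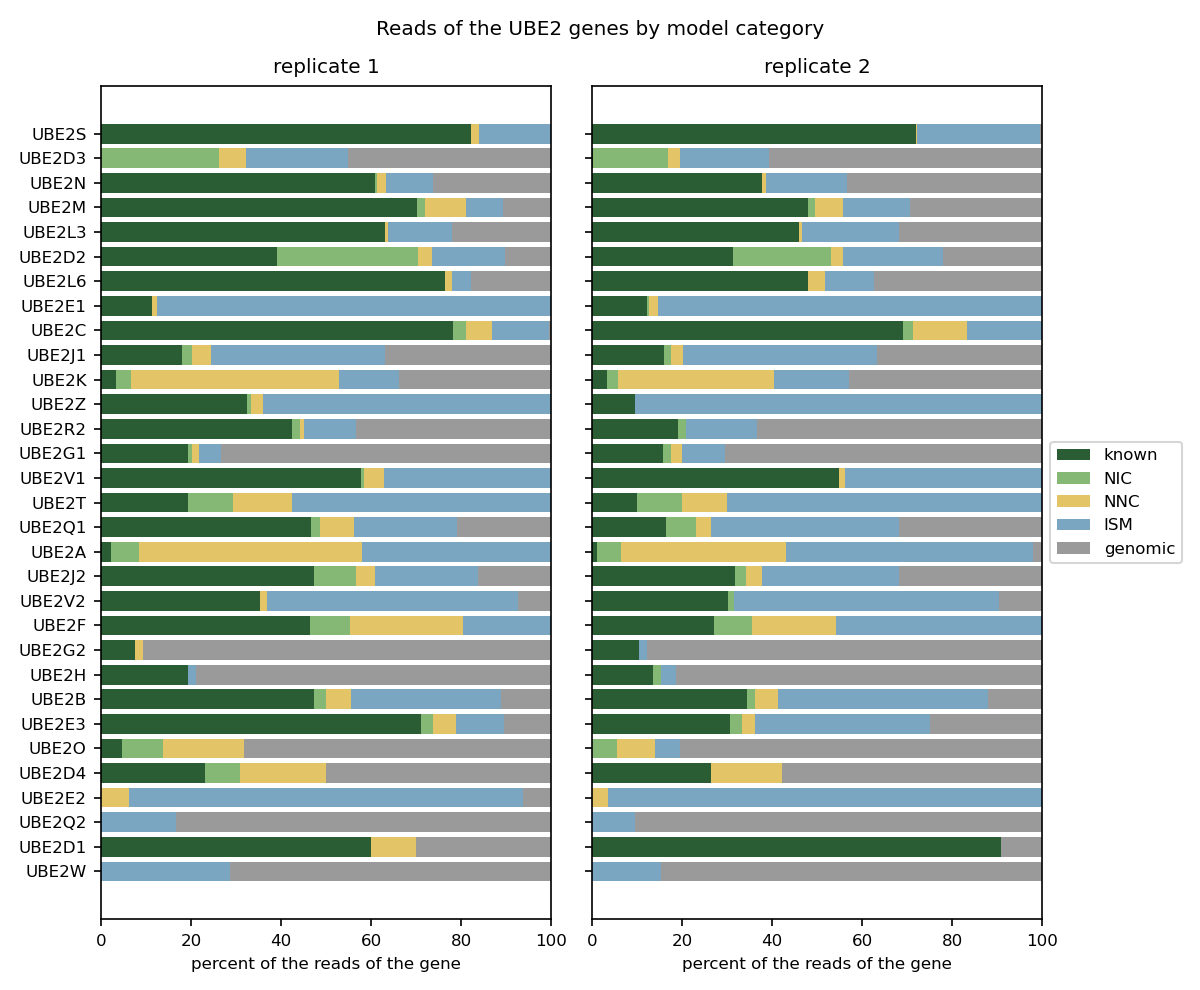
Percent of the reads of each gene by model category in replicate 1 and replicate 2, with 31 of the 32 genes ordered by mean level. UBE2S and UBE2C are mostly known, UBE2D3 has almost no known reads, and UBE2E1 and UBE2Z are mostly ISM, with no genomic reads.

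The known share ranged among the 27 tested members from 0% to 82.3% in replicate 1 and from 0% to 72.0% in replicate 2, a wider range than any difference between the libraries (-40.5 percentage points at most, in UBE2E3). Among the 24 members with at least 50 reads in each library, UBE2S had the highest mean known share, with 82.3% and 72.0%, followed by UBE2C with 78.2% and 69.1%. UBE2L6 was next by the mean, with 76.4% and 47.9%, although UBE2V1 (54.9%) and UBE2M (47.97%) were above it in replicate 2. The anaphase promoting complex pair was thus read mainly as annotated transcripts. At the other end, UBE2D3 had 0 of 363 reads and 1 of 397 reads in known models (0.252%). For replicate 1 this allows a share of up to 0.826% (3 reads). UBE2A had 2.11% and 1.05% and UBE2K 3.31% in each library.

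Members with few known reads differed in where their other reads lay. UBE2D3 had 164 and 241 reads in genomic models, all of 1 exon, and 82 and 79 in ISM models. UBE2D3 has 33 annotated transcripts, 19 of them coding, and its most abundant spliced model was a NIC model of 8 exons and 2140 bases with 73 and 50 reads. It made up 20.1% and 12.6% of the gene. A second NIC model of UBE2D3, of 8 exons and 2136 bases, had 5 and 6 reads. In UBE2D2 a NIC model of 6 exons and 1116 bases had 80 and 57 reads (28.2% and 19% of the total of the gene), beside the known model UBE2D2-202 with 109 and 92. These were the 3 NIC models of the group with the highest minimum count. UBE2K and UBE2A were led among spliced models by NNC models. The UBE2K model, of 7 exons and 1025 bases, had 46 and 27 reads, a share of 38.02% and 22.3%. The UBE2A model, of 6 exons and 800 bases, had 42 and 28, a share of 44.2% and 29.5%. An NNC model of UBE2D3, of 8 exons and 2236 bases, had 18 and 9 reads. UBE2T was led by an ISM model that keeps the 3′ end, with 6 exons, 836 bases and 44 and 51 reads.

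The share of reads in known models was lower in replicate 2 in 10 of the 27 members tested and higher in none (two-sided Fisher's exact test per gene, Benjamini-Hochberg over 6340 genes). Over all genes tested 27.1% passed, beside 37% of the members. Of all genes 26.9% were lower and 0.268% higher, so the genes that passed moved mostly one way. With a minimum of 50 reads in each library, 9 of 24 members passed, beside 45.6% of all such genes. Whether the members lay above or below the background thus depended on the minimum. The median difference was -9.19 percentage points over the members and -8.62 over all genes tested. UBE2L6 went from 146 of 191 reads (76.4%) to 126 of 263 (47.9%, adjusted p of 2.16e-08, Fisher's exact test). UBE2N went from 61.0% to 37.7% (adjusted p of 3.17e-08, Fisher's exact test) and UBE2M from 70.2% to 47.97% (adjusted p of 6.95e-08, Fisher's exact test). For UBE2N, the known transcript UBE2N-201 led in replicate 1 with 237 reads against 100 in a genomic model of 1 exon, and the genomic model led in replicate 2 with 133 against 117. UBE2Q1 fell from 46.7% to 16.5% (adjusted p of 9.91e-05, Fisher's exact test) and UBE2Z from 32.5% to 9.45% (adjusted p of 0.000134, Fisher's exact test). UBE2L3, UBE2R2, UBE2S and UBE2E3 also passed. Without genomic models the difference was smaller in UBE2M, at -10.7 in place of -22.3 percentage points (adjusted p of 0.0234, Fisher's exact test), and in UBE2L6, at -16.6 in place of -28.5 (adjusted p of 0.000497, Fisher's exact test). For UBE2R2 the difference was -22.7 in place of -23.3, with fewer reads, and did not pass (adjusted p of 0.0570, Fisher's exact test). Not every difference shrank in that setting. In UBE2Q1 it was larger, at -34.8 in place of -30.2 (adjusted p of 0.000471, Fisher's exact test), and in UBE2Z it stayed at -23.0.

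**Figure D4:**
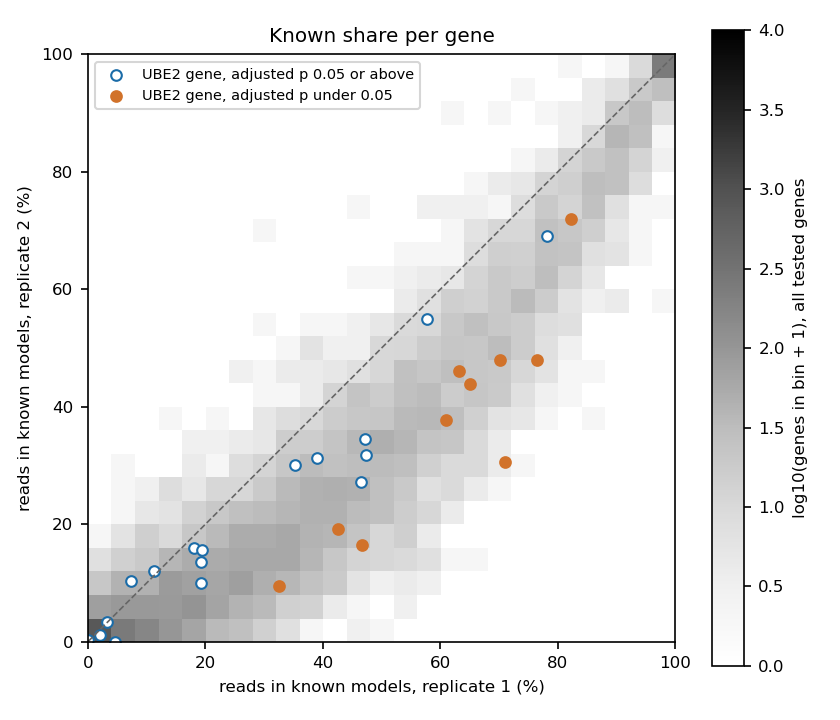
Percent of reads in known models per gene, replicate 1 on the horizontal and replicate 2 on the vertical axis, with all 6340 tested genes as grey bins on a log10 scale and the 27 tested UBE2 genes as circles. Filled circles are the 10 genes past the threshold of Fisher's exact test, and all of them lie below the dashed line of equal shares.

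Genomic models showed the opposite movement. Known and genomic shares are parts of the same reads of a gene, so these tests are not independent of each other. The genomic share rose in 7 of 27 members (25.9%) and fell in none (Fisher's exact test). Of all genes tested 10.4% passed, with 10.4% upwards and 0.0473% downwards. With a minimum of 50 reads in each library, 7 of 24 members passed, beside 18.3% of all such genes. UBE2M went from 38 of 356 reads (10.7%) to 101 of 344 (29.4%, adjusted p of 4.15e-08, Fisher's exact test). UBE2N rose from 26.3% to 43.5% (adjusted p of 8.10e-05, Fisher's exact test) and UBE2L6 from 17.8% to 37.3% (adjusted p of 0.000206, Fisher's exact test). These 3 are among the members whose known share fell. UBE2D3, UBE2D2 and UBE2R2 also passed. In UBE2L6, 34 and 95 reads were in a single genomic model that the table lists at 7 bases, so the listed lengths of genomic models entered no comparison. The median difference in genomic share was 2.51 percentage points over the members and 1.91 over all genes.

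Over all members, coding transcripts held 96.3% and 93.7% of the known reads, and retained intron transcripts 2.76% (2.14 to 3.56%) and 5.57% (4.52 to 6.83%), beside 4.24% and 7.07% of the known reads of all genes.

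Reads of 1 exon accounted for 29.3% of member reads in replicate 1 (27.99 to 30.6%) and 41.3% in replicate 2 (39.9 to 42.7%), beside 22.2% and 28.5% over all annotated genes. Such reads were in ISM models in some genes and in genomic models in others, so their share was also tested, a choice made after seeing the data. It rose in 9 of 27 members (33.3%), beside 19.9% of all genes (19.8% upwards and 0.0315% downwards, Fisher's exact test). A minimum of 50 reads was not tried for this share, and calls at equal depth were not compared. UBE2Z, with no genomic read, changed most, from 57.0% to 88.2% (adjusted p of 1.58e-06, Fisher's exact test). By the reads of both libraries together, a model of 1 exon led in 17 of the 32 members. It led in 13 in replicate 1, with 2 more tied with a spliced model, and in 21 in replicate 2. Leading models were not counted over all genes, so these counts have no background. The median 1-exon share was 26.3% and 43.2% over the 27 tested members, beside 22.2% and 36.4% over all 6340 tested genes. The ISM models of 1 exon numbered 18 in 15 members, with 408 and 560 reads, and 11 of them, with 317 and 432 reads, had exactly the length of an annotated terminal exon of their gene. In UBE2E1 such a model of 806 bases took 144 and 170 reads, or 77.0% and 70.8% of all UBE2E1 reads. In UBE2Z the model had 2093 bases and 65 and 112 reads, and in UBE2A it had 1292 bases and 33 and 40 reads. The matched exon can belong to any annotated transcript of the gene. In the reference transcripts, used below, the terminal exon has 2093 bases in UBE2Z, 808 in UBE2E1 and 975 in UBE2A. Such length matches were not counted over all genes. By the reads of both libraries together, genomic models of 1 exon led in 9 members. Among them were UBE2D3 (101 and 146 reads), UBE2G1 (60 and 49), UBE2G2 (45 and 51) and UBE2H (41 and 45). Reads without a splice junction were over 50% in 12 members in replicate 1 and in 15 in replicate 2. UBE2E1, UBE2Z, UBE2G2 and UBE2H were among these in both libraries, as were UBE2J1 and UBE2G1. In UBE2A such reads were 34.7% and 43.2% and in UBE2D3 45.2% and 60.7%.

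Across the 27 members with 20 reads in each library, the share of 1-exon reads was larger where the annotated terminal exon was longer (Spearman's rho of 0.537 in replicate 1 and 0.556 in replicate 2). With the length of the whole reference transcript rho was 0.598 and 0.618. Over 6072 protein-coding genes rho was 0.644 and 0.645 with the terminal exon and 0.479 and 0.475 with the transcript. The points share libraries and depth, and the coefficients describe genes, not replicates. The median terminal exon was 1893 bases in the members and 1019.5 bases in the protein-coding genes, while the median reference transcripts were closer in length, 2702 and 2545.5 bases. Some members departed from the relation. UBE2V1 has a terminal exon of 1791 bases and had 0% and 1.22% of its reads in models of 1 exon, and the reads of the overlapping readthrough gene were nearly all of that kind. UBE2S has one of 2018 bases and had 8.28% and 12.4%.

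**Figure D5:**
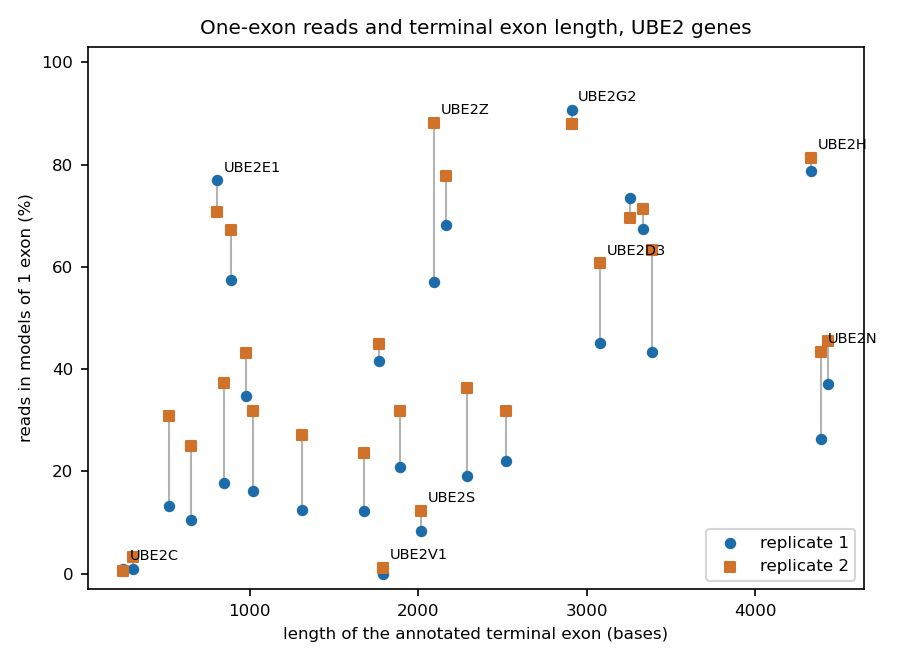
Percent of reads in models of 1 exon against the length of the annotated terminal exon in bases, for the 27 members with 20 reads in each library, with a circle for replicate 1 and a square for replicate 2 joined by a line. UBE2C and UBE2V1 lie near 0, UBE2G2 and UBE2H lie near or above 80% in both libraries, and UBE2Z moves from 57.0% to 88.2%.

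The 32 genes had 663 transcript models, of which 255 (38.5%, 34.8 to 42.2%) had a read in both libraries and 355 (53.5%) had a single read, beside 29.9% and 60.7% of the 230567 models of all annotated genes. By category, 57.1% of the 91 known models of the members recurred, beside 57.8% over all genes. ISM models recurred in 54.8% (47.8 to 61.6%), beside 34.4%, and genomic models in 58.7% (47.4 to 69.1%), beside 46.7%. NIC and NNC models of the members recurred in 19.3% and 15.6%, beside 15.5% and 10.95%. The members were read more deeply than the annotated genes (medians of 76.4 and 8.23 CPM), and recurrence at equal depth was not tested.

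The enzymes upstream and the modifiers themselves were read at their own levels in the same libraries. Of 9 E1 enzyme genes, none passed the exact binomial test. UBA1, the main ubiquitin activating enzyme, had 302.3 ± 19.5 CPM, and UBA3 and UBA6 were lowest, each with 17.7 ± 1.15 CPM. Of 13 modifier genes, 2 were higher and 1 was lower in replicate 2, beside 2.72% and 2.33% of all genes tested. The modifier genes were read more deeply, with sums of 9417 and 9598 CPM, beside 694.7 and 686.3 CPM for the E1 genes. Calls at equal depth were not compared. RPS27A, a fusion of ubiquitin with a ribosomal protein, had 2777 and 2972 CPM (log2 ratio 0.10, adjusted p of 0.0452, exact binomial test). The polyubiquitin gene UBB had 1652 and 1487 CPM (-0.15, adjusted p of 0.0128, exact binomial test). UBD, which encodes FAT10, was the lowest modifier gene with 29.1 ± 5.61 CPM. Of 10 genes for E2 enzymes or E2-like proteins with other symbols, 8 had reads and none passed the test. UFC1, the E2 of the modifier UFM1, was highest with 168.4 ± 6.09 CPM, and UBE2QL1 and UBE2NL were at 0 in both libraries, which allows up to 2.21 and 1.99 CPM.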

How the data were processed

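The deposited table gives raw counts of reads per transcript model in each library (no normalization by the authors), with each model's category, exon number and length as other properties. Per the submitters' processing notes, reads were aligned with minimap2 and the build was hg38. The name of the table refers to TALON, which assigns long reads to models. Further versions and filters are not given in the sources used here. Per the labels' protocols, depleted RNA entered the direct RNA kit. Gene counts were summed over models with Python 3.11.15. Genes with 10 reads over both libraries entered the exact binomial test, and genes with 20 reads in each library entered Fisher's exact tests (scipy 1.17.1), with Benjamini-Hochberg adjustment over all genes and a threshold of 0.05. Log2 ratios add 0.5 reads. Scaling by edgeR 4.0.16 (TMM) and DESeq2 1.42.0 size factors, other minimum counts and subsets of models were the alternatives. The tests were tested on simulated data. GENCODE 29 (GRCh38) gave positions, exons and sequences. The reference transcript of a gene is its coding transcript with most reads, or the longest where tied. The members and lists were chosen with earlier results of these data known. Named in full were the 10 highest members, members past a threshold (at most 6 for known and 4 for genomic shares), the highest and lowest 3 known shares, the 3 leading NIC and NNC models (4 where tied), and listed genes past the threshold or highest and lowest in their list. Other named items were chosen after their values were seen. Some items that this rule selects are not reported here.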

Additional observations from a re-analysis of the deposited data

How the results depend on the processing

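No paired analysis was possible because both libraries belong to the same group. The 2 member genes past the threshold for gene counts became 6 with known models only (among them UBE2M, UBE2N, UBE2Q1, UBE2R2 and UBE2Z, with a median log2 ratio over all tested genes of -0.26), 4 without genomic models (among them UBE2N, UBE2V1 and UBE2M), and 1 with UBE2V1 and its readthrough gene counted together. Over all genes 18.8% and 8.26% passed in the first 2 of these settings, with 25 and 30 members tested. Library totals in these 2 settings held only the reads kept. They remained 2 under TMM, under DESeq2 size factors and with other minimum counts. UBE2Z, with a log2 ratio of 0.0036 in the report's setting, had -0.020 under TMM and -1.45 with known models only. Of the reads kept in each setting, the members held 0.248% with known models only and 0.278% without genomic models. Of all reads, they held 0.357% with 10 other E2 genes added. Without genomic models the mean shares were 52.1% known, 34.2% ISM, 6.40% NIC and 7.30% NNC. With models of 2 or more exons they were 60.4% known, 7.44% NIC and 8.50% NNC. NNC models had 4.07% without models of 1 read and 7.26% as a mean over members. Single libraries gave 0.310 to 0.332% of all reads, and 32.6 to 46.5% known, 21.5 to 29.2% ISM, 4.14 to 5.54% NIC, 4.71 to 6.33% NNC and 20.2 to 29.3% genomic. Members with few reads, such as UBE2W and UBE2D1, allow no statement on category shares at this depth.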
